A study of Rattus norvegicus with 10 samples.

Results

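Voltage-gated sodium channels open when a neuron is depolarised and carry the inward current that starts and propagates the action potential. Each channel has a large pore-forming alpha subunit, which carries the voltage sensors, and smaller beta subunits, which are membrane proteins with an immunoglobulin-like domain that adjust gating, surface delivery and cell adhesion. Alpha subunits cluster at the axon initial segment and at nodes of Ranvier, and inherited variants in several of them cause epilepsy, while many antiseizure drugs act by blocking these channels.

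The members described here are 4 alpha subunit genes, Scn1a, Scn2a, Scn3a and Scn8a, and 3 beta subunit genes, Scn2b, Scn3b and Scn4b. Their rows were taken by symbol alone, from a list of members chosen with earlier results of these data known. The RefSeq identifier of each row of the messenger RNA count matrix was matched to a rat gene symbol, and for each symbol the row with the highest mean count was kept. Each of the 7 symbols had 1 row, so 7 of 32041 rows of aligned reads were members, and all 7 passed the filter on low counts that left 22447 rows to be tested. The rows are NM_030875 for Scn1a, NM_012647 for Scn2a, NM_013119 for Scn3a, NM_019266 for Scn8a, NM_012877 for Scn2b, NM_139097 for Scn3b and NM_001008880 for Scn4b. In the RefSeq gene table, Scn1a, Scn2a and Scn3a lie on rat chromosome 3, with Scn2a and Scn3a as neighbours, Scn8a lies on chromosome 7, and the 3 beta subunit genes lie on chromosome 8, with Scn2b and Scn4b as neighbours.

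Tissue was obtained from 10 males of the outbred Sprague-Dawley strain, weighing 290 to 320 g, whose age was not given in the labels. All 10 carried an electrode in the left lateral amygdala. The 5 sham rats (rats 1 to 5) received no current, and the 5 stimulated rats (rats 6 to 10) were driven into status epilepticus, a prolonged seizure, with 400 µA pulses at 60 Hz for 30 min after 2 weeks of recovery, and were treated with diazepam to end it. The left CA3 and dentate gyrus were dissected 3 months after status epilepticus, following 2 weeks of video EEG in the stimulated rats. According to the methods of the study, the stimulated rats used had spontaneous seizures. One piece of tissue held all cell types of these fields, so fewer cells of a type and less RNA per cell cannot be told apart in any value below.

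Libraries held 13552309 to 24086059 aligned counts, and the depth ranges of the groups overlapped. The marker list of CA3 pyramidal cells had a summed level of 1874 to 2200 CPM (counts of a feature relative to the TMM-scaled size of the library) in sham rats and 1544 to 2092 in stimulated rats, and the 3 of 4 dentate granule cell markers that were tested summed to 243.3 to 297.8 and 158.7 to 355.4 CPM, so the markers of both labelled fields were present. Markers of CA1 pyramidal cells, a field not named for this tissue, were present too, at 175.7 to 295.8 CPM in sham rats and 99.6 to 353.3 CPM in stimulated rats. The immediate early gene Fos, which marks recent neuronal activity, was at 3.26 to 5.32 CPM in the sham rats, and at 5.61, 106.3, 5.24, 50.3 and 61.7 CPM in rats 6 to 10.

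No sodium channel member passed the test of stimulated against sham rats across all features. In the quasi-likelihood test of edgeR, 0 of 7 members had an adjusted p under 0.05, against a background of 0% of the 22447 tested features, and the adjusted p of the members ran from 0.520 (Scn2a) to 0.987 (Scn3b). At an unadjusted p under 0.05 the count was also 0 of 7, where 6.7% of all tested features passed as higher and 3.16% as lower in stimulated rats. With library size alone in place of TMM factors 2.12% passed as lower of 9.81% in both directions, and the count of members was again 0. The likelihood ratio and exact tests of edgeR, DESeq2 and limma-voom also called 0 members at an adjusted p under 0.05, although the first 3 of these called 119, 90 and 33 features in the whole table. The groups overlapped for every member, and 1.29% of all tested features had groups that did not overlap. Stimulated over sham, the log2 fold change was below 0 for 6 members and above 0 for 1, with a median of -0.15. Over all tested features 47.8% were below 0 and the median was 0.01.

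The 4 alpha subunit genes are given first. Scn1a, whose protein carries much of the sodium current of parvalbumin interneurons, was at 58.9, 53.0, 64.4, 60.3 and 53.1 CPM in sham rats 1 to 5 and at 63.9, 40.7, 56.8, 48.7 and 50.6 CPM in stimulated rats 6 to 10. Rats 7, 9 and 10 were below every sham rat, and rats 6 and 8 lay within the sham range. The means were 58.0 ± 4.91 (SD, n = 5) and 52.1 ± 8.76 CPM, and the log2 fold change was -0.15 ± 0.12 (SE), with a 95% interval of -0.41 to 0.10 and an edgeR adjusted p of 0.686. This interval allows a level in stimulated rats of 0.755 to 1.07 times that of sham rats.

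Scn2a, the main alpha subunit of excitatory neurons early in life and later of the proximal axon initial segment, had the lowest p among the members. It was at 363.2, 349.0, 431.5, 381.9 and 330.8 CPM in sham rats and at 380.6, 287.2, 351.1, 289.3 and 299.0 CPM in stimulated rats. Rats 7, 9 and 10 were again below every sham rat, while rats 6 and 8 were inside the sham range. The means were 371.3 ± 38.5 and 321.4 ± 42.1 CPM (SD, n = 5 each). The log2 fold change was -0.21 ± 0.10 (SE; 95% interval -0.42 to 0.01), with an unadjusted p of 0.0580 and an adjusted p of 0.520 in edgeR. A stimulated level between 0.745 and 1.01 times the sham level is within this interval.

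Scn3a, an alpha subunit most prominent before birth, was at 34.3, 42.1, 45.8, 41.7 and 35.1 CPM in sham rats and at 40.3, 31.8, 37.7, 42.3 and 33.4 CPM in stimulated rats. Only rats 7 and 10 fell outside the sham range, both below it. Among the alpha subunits its log2 fold change was the smallest in size, at -0.10 ± 0.11 (SE; 95% interval -0.35 to 0.14), with an edgeR adjusted p of 0.803. Scn8a, the alpha subunit of the distal axon initial segment and of mature nodes, which supports repetitive firing, was at 131.8, 151.4, 155.2, 162.0 and 127.1 CPM in sham rats. In stimulated rats it was at 160.5, 111.1, 123.2, 138.1 and 98.8 CPM, so that rats 7, 8 and 10 were below every sham rat and rat 6 was close to the highest sham rat. Scn8a had a log2 fold change of -0.20 ± 0.12 (SE; 95% interval -0.47 to 0.06), with an adjusted p of 0.605 in edgeR.

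**Figure D1:**
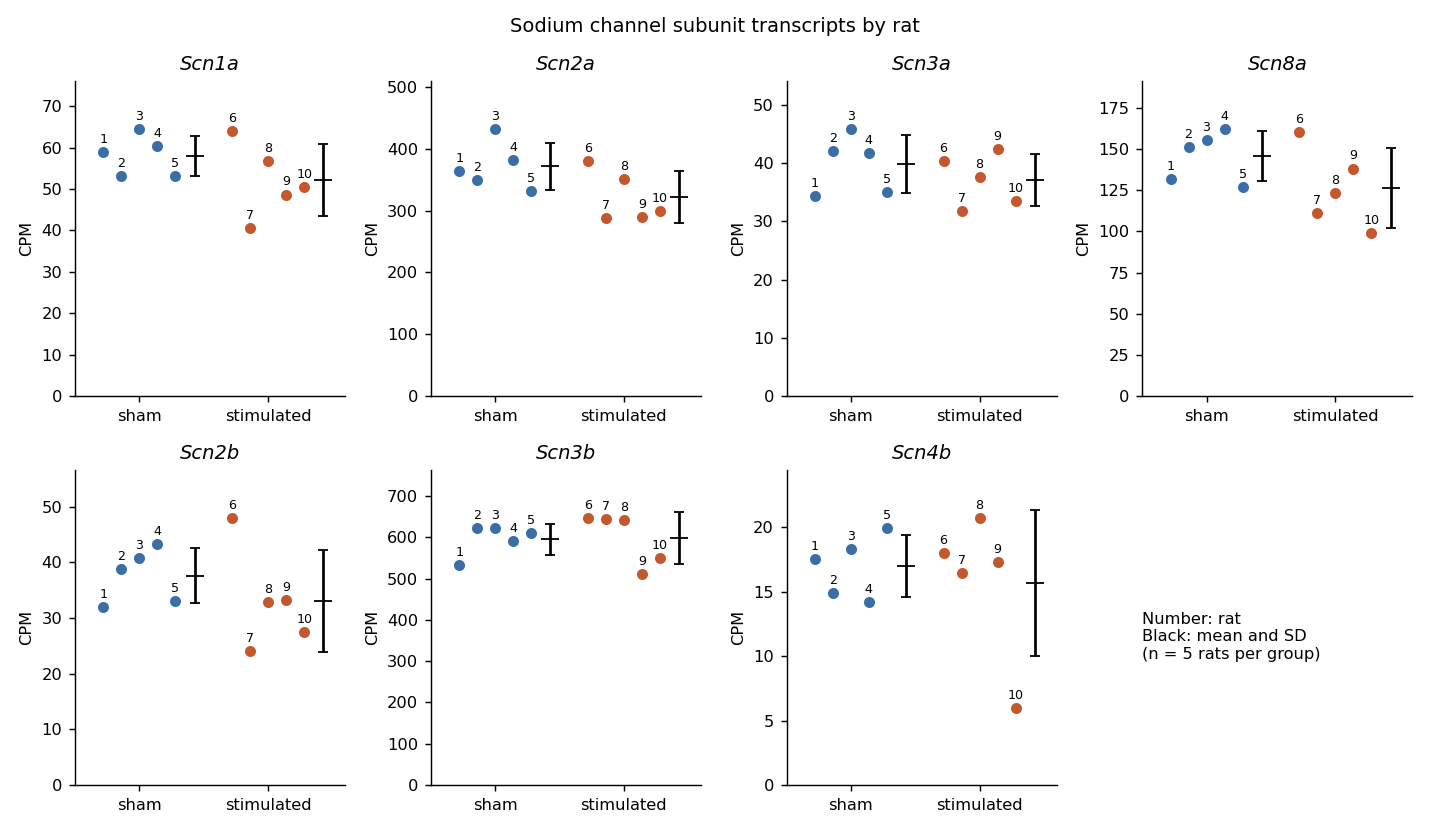
Level of each sodium channel member in CPM (vertical axis, starting at 0) in the 5 sham rats (blue, rats 1 to 5) and the 5 stimulated rats (orange, rats 6 to 10), with black bars for the mean and SD of each group. The groups overlap in all 7 panels, rat 7 or rat 10 is the lowest for 6 members, and Scn4b stands alone in rat 10 at 5.99 CPM.

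Of the beta subunit genes, Scn2b encodes a subunit joined to the alpha subunit by a disulfide bond. Its level was 32.0, 38.8, 40.8, 43.3 and 33.1 CPM in sham rats and 48.0, 24.1, 33.0, 33.3 and 27.4 CPM in stimulated rats. Rat 6 was above every sham rat, rats 7 and 10 were below every sham rat, and the other two were within the sham range. The coefficient of variation was 13.0% among sham rats and 27.7% among stimulated rats, and the difference in spread was not tested. Stimulated over sham, its log2 fold change was -0.18 ± 0.17 (SE; 95% interval -0.54 to 0.17), with an edgeR adjusted p of 0.741.

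Scn3b, which encodes a subunit that binds without a disulfide bond, had the narrowest interval of the 7 members. It was at 532.2, 621.9, 622.3, 591.3 and 609.6 CPM in sham rats and at 647.1, 643.4, 640.9, 511.1 and 549.7 CPM in stimulated rats. Rats 6, 7 and 8 were above every sham rat, and rat 9 was below every sham rat. The means were 595.5 ± 37.5 and 598.4 ± 63.6 CPM (SD, n = 5 each). The log2 fold change was 0.01 ± 0.09 (SE), with an edgeR adjusted p of 0.987. The 95% interval corresponds to 0.885 to 1.14 times the sham level.

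Scn4b encodes a disulfide-linked subunit known for its part in resurgent sodium current, the current that flows as the membrane repolarises. It was at 17.6, 14.9, 18.3, 14.2 and 20.0 CPM in sham rats and at 18.1, 16.5, 20.8, 17.3 and 5.99 CPM in stimulated rats. Rats 6, 7 and 9 lay within the sham range, rat 8 just above it, and rat 10 below it. In rat 10 the level rested on 116 counts (exact Poisson 95% interval 95.9 to 139.1, which is 4.95 to 7.18 CPM and covers counting error only), while the other rats had 195 to 476 counts. The log2 fold change over all rats was -0.11 ± 0.25 (SE; 95% interval -0.64 to 0.42), with an edgeR adjusted p of 0.911, and without rat 10 it was 0.09.

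**Figure D2:**
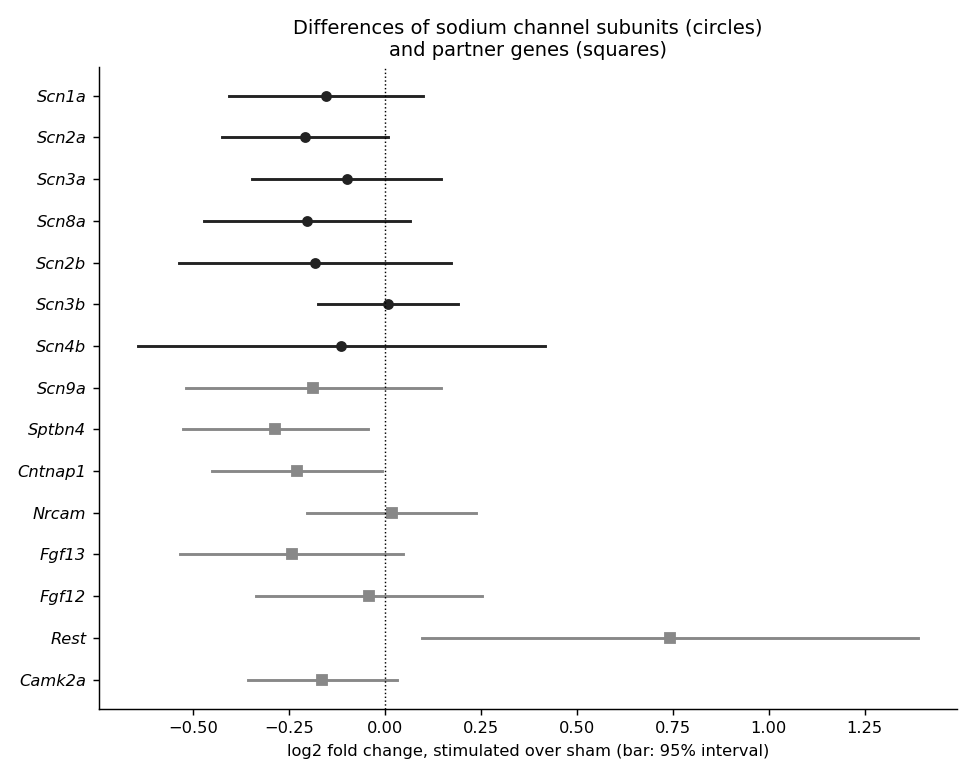
Log2 fold change, stimulated over sham, with its 95% interval (horizontal axis) for the 7 members (circles) and for genes named from the partner lists (squares). The interval of every member includes 0, that of Scn4b is the widest (-0.64 to 0.42), and the intervals of Sptbn4, Cntnap1 and Rest do not include 0, though none has an edgeR adjusted p under 0.05.

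Read by rat, the members did not move evenly over the stimulated group. Rat 6 had 0 members below the sham range and 2 above it (Scn2b and Scn3b). Rat 8 had 1 below (Scn8a) and 2 above (Scn3b and Scn4b), and rat 9 had 3 below (Scn1a, Scn2a and Scn3b). Rat 7 had 5 members below the sham range (Scn1a, Scn2a, Scn3a, Scn8a and Scn2b) and 1 above it (Scn3b), and rat 10 had 6 below it, all but Scn3b. The share of all tested features outside the sham range in each rat is not given here. These counts therefore have no background and cannot be read as particular to the members. In rat 7, Scn2b was 0.63 below the sham mean on the log2 scale while Scn3b was 0.11 above it, the widest gap between these genes in any rat.

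Other measures differed between the same rats, and their part in these values was not tested. Rats 7, 9 and 10, which held the 3 lowest Scn2a levels of all 10 rats, also held the 3 highest scores of the immediate early gene list (mean log2 CPM of 8 genes), at 5.29, 5.65 and 5.83 against 3.16 to 3.63 in sham rats and 3.74 and 3.20 in rats 6 and 8. Their summed level was 634.2, 1590 and 643.0 CPM, and 130.5 to 170.2 CPM in sham rats. The list of 10 neuron markers scored 8.92 to 9.02 in sham rats and 9.01, 8.94, 8.96, 8.90 and 8.81 in rats 6 to 10, so its lowest value was that of rat 10. Its summed level was 5189 to 5657 CPM in sham rats and 5065 to 5602 CPM in stimulated rats, no marker of it was at 0 in any rat, and 0 of 10 had an unadjusted p under 0.05 in either direction. The markers were not even within a rat. Rbfox3 was at 182.7, 124.1, 221.1, 155.4 and 177.8 CPM in rats 6 to 10 (183.2 to 226.7 in sham rats). In rat 7, Snap25, Syt1, Nefm and Thy1 were also below their sham ranges, while Map2, Nefl, Eno2 and Tubb3 were above theirs. In rat 10, Snap25, Syt1, Stmn2 and Nefm were also below their sham ranges. Eno2 and Thy1 were above theirs in rat 10, and Map2, Nefl and Tubb3 were within theirs. In the astrocyte list, 7 of 7 tested and none at 0, the summed level was 4448 to 5047 CPM in sham rats and 4446, 9347, 4658, 5613 and 8654 CPM in rats 6 to 10. This sum was highest in rats 7 and 10, which had the most members below the sham range. The score of the list was 8.51 to 8.76 in sham rats and 8.62, 8.73, 8.71, 8.86 and 8.93 in rats 6 to 10. By score, rats 9 and 10 were highest and rat 7 was within the sham range. Much of the summed level was Gfap, the intermediate filament of reactive astrocytes, at 1327 to 1927 CPM in sham rats and at 6469 and 5396 CPM in rats 7 and 10, while Aldh1l1 was below the sham range in both. In rat 7, Gja1 at 271.1 CPM and Aldoc at 742.1 CPM were also below their sham ranges. Aqp4 at 162.3 CPM and Slc1a3 at 748.6 CPM in rat 7 were above theirs. At an unadjusted edgeR p under 0.05, 3 of 7 astrocyte markers were higher and 0 lower, where 6.7% and 3.16% of all tested features passed. By the same count, 1 of 7 microglia markers and 8 of 8 immediate early genes were higher and 0 lower. Of the 7 oligodendrocyte and 6 interneuron markers, 0 passed in either direction. The microglia list summed to 311.7, 461.3, 319.8, 438.8 and 378.8 CPM in rats 6 to 10 (285.9 to 362.5 CPM in sham rats). By score, rats 7 and 9 were above the sham range of 4.80 to 5.18, at 5.36 and 5.29, and rat 10 was within it. The oligodendrocyte list summed to 3052, 2177, 3184, 3640 and 3579 CPM in rats 6 to 10 (2684 to 3867 CPM in sham rats). The interneuron list, 6 of 6 tested, summed to 321.3 to 369.1 CPM in sham rats and to 288.7 to 383.9 CPM in stimulated rats, but its markers went different ways. In rats 7 and 10, Gad1 was at 120.5 and 114.2 CPM (143.4 to 180.3 in sham rats). Pvalb was at 36.3 and 33.0 CPM in these rats (40.3 to 57.8 in sham rats). Slc32a1 and Vip each left the sham range in opposite directions in rats 7 and 10, and Gad2 was within it in both. Sst was at 129.8 CPM in rat 10 (38.6 to 47.5 in sham rats).

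The CA1 pyramidal cell list, 4 of 4 tested and none at 0, was highest in rat 6, at a score of 5.85, and lowest in rat 10, at 3.97, with 4.84 to 5.43 in sham rats. These are the rats in which Scn2b was highest of all and Scn4b lowest of all. Of its markers in rat 10, Fibcd1 at 28.4 CPM, Mpped1 at 47.8 CPM and Pou3f1 at 1.96 CPM were below the sham ranges of 85.0 to 163.5, 56.6 to 95.9 and 4.54 to 9.64 CPM, and Wfs1 at 21.4 CPM was within its sham range of 20.9 to 42.3 CPM. The endothelial list, 6 of 7 tested, was highest in rat 10 as well, with a summed level of 275.6 CPM against 127.5 to 150.3 CPM in sham rats and 144.5 to 161.9 CPM in the other stimulated rats. By score this list was at 3.905 to 4.092 in sham rats and 4.33, 4.31, 4.27, 4.08 and 5.04 in rats 6 to 10. Only rat 9 was within the sham range, and the other stimulated rats were above it. At an unadjusted edgeR p under 0.05, 4 of the 6 tested endothelial markers were higher and 0 lower, where 6.7% and 3.16% of all tested features passed. Calb1, the calcium-binding protein calbindin of dentate granule and CA1 cells, was at 38.2 CPM in rat 10 and at 66.8 to 102.3 CPM in the other rats, while the other tested dentate markers in rat 10, Prox1 at 22.6 CPM and C1ql2 at 141.5 CPM, were within the sham ranges of 22.3 to 35.9 and 140.5 to 165.1 CPM. By score, the dentate list was at 5.985 to 6.379 in sham rats and 6.13, 5.56, 6.01, 6.66 and 5.64 in rats 6 to 10. In rat 7, C1ql2 at 44.8 CPM was below its sham range, with Prox1 and Calb1 within theirs. Of the CA3 markers in rat 7, Nptx1 at 850.0 CPM was below its sham range (1288 to 1535), with Grik4 and Cpne4 above theirs. In rat 10, Nptx1 at 1108 CPM, Cpne4 at 195.7 CPM and Spock1 at 162.1 CPM were below their sham ranges, and Grik4 was within its own. By score, the CA3 list was at 8.276 to 8.459 in sham rats and 8.30, 8.274, 8.328, 8.314 and 8.089 in rats 6 to 10, lowest in rat 10. The share of unaligned reads was 32.8% to 37.1% in sham rats and 35.5%, 32.0%, 41.4%, 42.9% and 45.1% in rats 6 to 10. With the neuron score as a covariate the log2 fold change of Scn8a went from -0.20 to -0.09 and that of Scn2b from -0.18 to -0.05, whereas that of Scn2a was -0.17. With the CA1 score as a covariate, chosen after the data were seen, Scn8a was at -0.14, Scn2b at -0.11, Scn2a at -0.18 and Scn4b at -0.02. No member passed an unadjusted p of 0.05 in either fit, where 4.81% (neuron score) and 7.84% (CA1 score) of all tested features did, 1.76% and 2.93% as lower, so a count of 0 among 7 is close to the background.

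**Figure D3:**
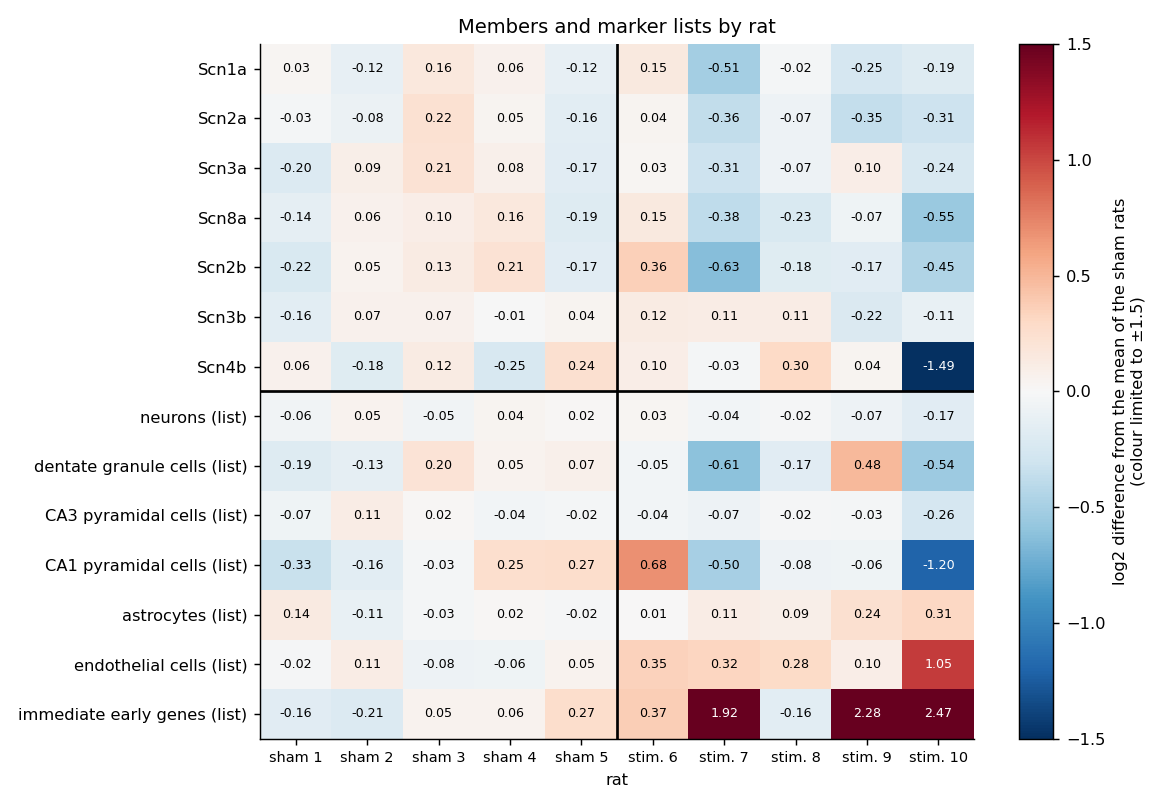
Difference of each rat (columns) from the mean of the sham rats on the log2 scale for the 7 members and 7 marker lists (rows), written in each cell and coloured from blue (lower) to red (higher), with colour limited at 1.5 in size. The alpha subunits and Scn2b are all blue in rats 7 and 10, at -0.63 to -0.19, rat 6 is at or above the sham mean for all 7 members, and the immediate early list is highest in rats 7, 9 and 10.

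The comparison leaned on rat 6. Without it, 4 of 7 members had an unadjusted edgeR p under 0.05, all lower in the 4 remaining stimulated rats, where 5.73% of all tested features passed as lower. The log2 fold changes were then -0.25 for Scn1a, -0.29 for Scn2a, -0.32 for Scn8a and -0.37 for Scn2b. In the same order, the unadjusted edgeR p was 0.0456, 0.0114, 0.0151 and 0.0163. After adjustment it was 0.346, 0.215, 0.236 and 0.241, so 0 members passed at an adjusted p under 0.05. The labels place rat 6 in the stimulated group. In the published methods the stimulated group of this assay is smaller than in the labels, and no animal is named as left out, so all rats were kept. Without rat 10, in contrast, Scn1a was at -0.14, Scn8a at -0.13 and Scn2b at -0.12. Without rat 7, Scn1a was at -0.09, Scn8a at -0.17 and Scn2b at -0.10. In both of these fits 0 members had an unadjusted edgeR p under 0.05. Of all tested features, 3.00% (without rat 10) and 2.63% (without rat 7) passed as lower.

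**Figure D4:**
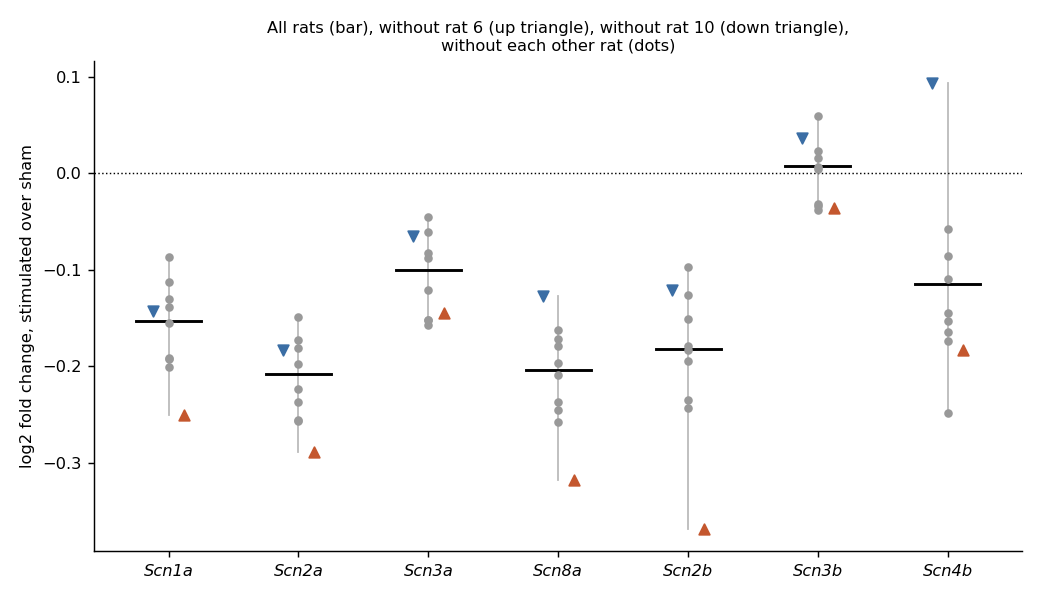
Log2 fold change of each member (vertical axis, stimulated over sham) with all 10 rats (black bar), without rat 6 (orange triangle), without rat 10 (blue triangle) and without each other rat (grey dots). Scn1a, Scn2a, Scn3a, Scn8a and Scn2b stay below 0 in all 10 fits, and Scn3b and Scn4b lie on both sides of 0.

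Ratios between members of 1 library do not depend on how libraries are scaled. For each of 3 ratios the log2 of the ratio of counts was compared between groups by an exact two-sided permutation test over every possible assignment of 5 rats to a group, whose smallest p is 0.00794. Scn3a to Scn1a, a subunit prominent before birth set against an adult one, was -0.55 ± 0.16 in sham rats and -0.48 ± 0.20 in stimulated rats (SD, n = 5 each; difference 0.07 ± 0.11 SE, exact permutation p = 0.564, adjusted over the 3 ratios 0.845). Scn8a to Scn2a, the pair of the axon initial segment of excitatory neurons, was -1.35 ± 0.13 and -1.36 ± 0.21 (difference -0.01 ± 0.11 SE, exact permutation p = 0.968, adjusted 0.968). This ratio was highest in rat 9, at -1.07, and lowest in rat 10, at -1.60, with sham rats between -1.48 and -1.21.

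Scn3b to Scn2b was 3.99 ± 0.16 in sham rats and 4.21 ± 0.38 in stimulated rats (difference 0.22 ± 0.18 SE, exact permutation p = 0.294, adjusted 0.845). Rats 7, 8 and 10 were above every sham rat, at 4.74, 4.28 and 4.33, rat 6 was below every sham rat at 3.75, and rat 9 was within the sham range at 3.94. Without rat 6 the difference was 0.33 and the exact permutation p was 0.0714. These ratios are of counts and also carry the unequal lengths of the transcripts, so only their difference between rats can be read. For the same reason the levels of different genes are not ranked here.

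**Figure D5:**
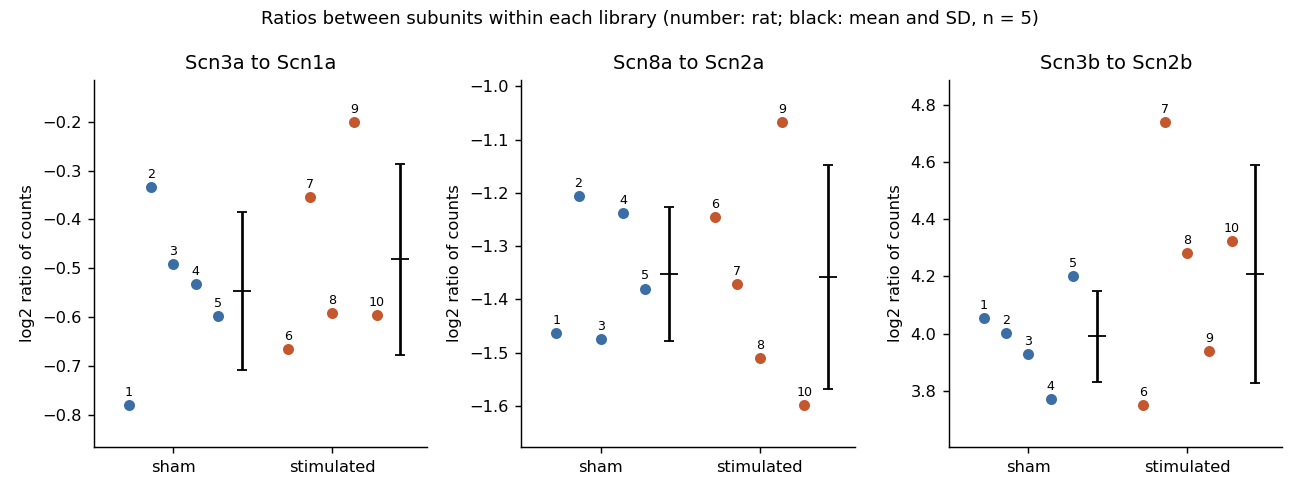
Log2 ratio of counts within each library (vertical axes, each with its own range that does not start at 0) for Scn3a to Scn1a, Scn8a to Scn2a and Scn3b to Scn2b in the sham rats (blue) and stimulated rats (orange), with black bars for the mean and SD. The groups overlap in all 3 panels, and rat 7 has the highest Scn3b to Scn2b ratio at 4.74.

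Genes that act with sodium channels were read from 4 lists with 35 genes, of which 28 had a row and 26 were tested. In edgeR, 0 of 26 had an adjusted p under 0.05, and at an unadjusted p under 0.05 there were 1 higher and 2 lower, against 6.7% and 3.16% of all tested features. The log2 fold change was below 0 for 13 genes and above 0 for 13, with a median of -0.01. Sptbn4, which encodes the beta-IV spectrin that ties ankyrin G and sodium channels to the axonal cytoskeleton, was at 298.1, 298.7, 272.9, 274.0 and 232.6 CPM in sham rats and at 238.5, 167.0, 247.6, 248.4 and 227.7 CPM in stimulated rats. Rats 7 and 10 were below every sham rat, and the other 3 stimulated rats were between the lowest sham rat and the next. Its log2 fold change was -0.29 ± 0.11 (SE), with an unadjusted p of 0.0230 and an adjusted p of 0.431 in edgeR.

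Cntnap1, which encodes the paranodal protein Caspr, averaged 338.8 ± 20.4 CPM in sham rats, and its mean was 289.0 ± 45.2 CPM after stimulation (SD over 5 rats each). Its lowest values were 239.5 CPM in rat 7 and 244.7 CPM in rat 10. Its log2 fold change was -0.23 ± 0.10 (SE; edgeR unadjusted p = 0.0427, adjusted p = 0.486). Cntnap1 no longer had an unadjusted p under 0.05 with library size alone, in the likelihood ratio and exact tests of edgeR, or with either marker score as a covariate. Nrcam, which encodes a cell adhesion molecule that ankyrin G holds at the same sites, was at 457.9 ± 37.2 CPM in sham rats and 463.3 ± 66.9 CPM after stimulation, with an edgeR adjusted p of 0.970. Ank3, the gene of ankyrin G itself, which holds sodium channels at the initial segment, was at 226.4 ± 10.7 and 216.3 ± 17.7 CPM (log2 fold change -0.07 ± 0.08 SE, edgeR adjusted p = 0.810). It was chosen for naming after its values were seen, for its role. Of the 8 anchor genes 6 were tested, with 0 higher and 2 lower at an unadjusted p under 0.05.

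The regulators held 15 genes, 12 of them tested, with 1 higher and 0 lower at an unadjusted p under 0.05. The higher one was Rest, which encodes a repressor that keeps neuronal genes such as Scn2a silent outside neurons. Rest was at 1.40, 0.840, 2.23, 1.82 and 1.38 CPM in sham rats and at 2.08, 4.13, 1.53, 2.60 and 2.58 CPM in stimulated rats, from only 11 to 89 counts. Rats 7, 9 and 10 were above every sham rat. For Rest, the log2 fold change was 0.74 ± 0.30 (SE), with an unadjusted p of 0.0276 and an adjusted p of 0.446 in edgeR. Camk2a, the alpha chain of a calcium-dependent kinase that is abundant at excitatory synapses and phosphorylates the channels, was at 1406 ± 109.9 and 1256 ± 146.5 CPM (log2 fold change -0.16 ± 0.09 SE, edgeR adjusted p = 0.563).

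All 4 fibroblast growth factor homologous factors, intracellular proteins that bind the tail of the alpha subunit and shift inactivation, were tested, and 0 passed an unadjusted p of 0.05 in either direction. Fgf13 was at 260.9 ± 34.5 CPM in sham rats and 220.5 ± 43.3 CPM in stimulated rats (log2 fold change -0.24 ± 0.14 SE, edgeR adjusted p = 0.565), and Fgf12 was at 28.9 ± 4.99 and 28.1 ± 4.06 CPM (edgeR adjusted p = 0.942). Of the 8 other sodium channel genes 4 were tested, also with 0 at an unadjusted p under 0.05. Scn9a, an alpha subunit best known from sensory neurons, was at 12.8 ± 2.75 and 11.2 ± 1.37 CPM (edgeR adjusted p = 0.715). Scn10a and Scn11a, alpha subunits of sensory neurons, had 0 to 4 and 0 to 9 counts per library and were too low to be tested. The alpha subunits are similar in sequence and reads were 36 bases long, so their levels, Scn9a included, are uncertain to the extent that reads could be assigned to more than 1 gene.

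For each member, the named gene whose log2 CPM ran most alike over the 10 rats was taken from 10194 features with a mean count of at least 50. These correlations describe the same 10 libraries, were picked as the highest of many, and carry both the group difference and any shared technical variation. Scn1a ran most alike with Zfp483 (Pearson r = 0.988, Spearman rho = 0.988), Scn2a with Srpk2 (0.969 and 0.952), Scn3a with Gk (0.926 and 0.879) and Scn8a with Fry (0.977 and 0.976). For the beta subunits the closest were Arhgap35 for Scn2b (0.952 and 0.939), Slitrk4 for Scn3b (0.934 and 0.891) and Zdhhc20 for Scn4b (0.967 and 0.867). Among the members themselves, Scn2b and Scn8a were most alike (r = 0.918), followed by Scn1a and Scn2a (r = 0.912), while the member closest to Scn3b was Scn2a at r = 0.358 and the one closest to Scn4b was Scn8a at r = 0.515.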

How the data were processed

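Polyadenylated RNA from 10 rats was sequenced in single reads of 36 cycles. The submitters' processing notes name BWA and the rn4 build, and per the methods of the study the authors counted aligned reads with a script of their own. The deposited values are raw counts per transcript, with no normalization. The methods name Ensembl transcripts, but rows carry RefSeq identifiers. Use of strand and of shared reads was not given in the sources used here. Symbols came from the RefSeq gene table of GRCr8, used for names, chromosomes and neighbours only. The row of unaligned reads (32.8% to 37.1% of reads in sham and 32.0% to 45.1% in stimulated libraries) was left out. Groups came from the treatment label. No batch is given in the labels, and no file says whether RNA was processed together.

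Features with a summed count below 46 (the 30th percentile) were left out, and 22447 were tested in edgeR 4.0.16 under R 4.3.3 (quasi-likelihood F test, TMM factors, default settings, 5 sham against 5 stimulated rats, no covariate, Benjamini-Hochberg adjustment). The SE was the absolute log2 fold change over the square root of F, and 95% intervals used the t distribution with the total degrees of freedom. The code was tested on simulated counts. Log2 CPM had a prior count of 2. Ratios added 0.5 to each count. Alternatives were other size factors, no filter, other tests (with limma 3.58.1 and DESeq2 1.42.0), summed rows per symbol, marker scores as covariates and each rat left out. Permutation tests ran in python 3.11.15 with numpy 2.4.6. The Poisson interval and Spearman correlations used scipy 1.17.1, and plots matplotlib 3.10.9.

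The members, gene lists and marker lists were chosen with earlier results of these data known. Named were all members, the genes of each partner list with an unadjusted p under 0.05 (at most 4) and the 2 with the highest mean CPM, and the feature most alike to each member. Some genes that this rule names are not reported here. Partner lists were other sodium channel subunits, axon initial segment and node anchors, fibroblast growth factor homologous factors, and regulators. Rats are the replicates. Other libraries of the series and the methylation data of the study were not used here.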

Additional observations from a re-analysis of the deposited data

Results flagged for a closer look

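Among the members, their 3 ratios and the partner genes that the naming rule picks, 40 groups of 5 values were examined for a single rat whose gap to its nearest neighbour took more than 0.71 of the range of its group. Chance gives about 1 in 20, or 2 of these 40, and 3 exceeded it. Scn4b in stimulated rat 10, at 5.99 CPM, had a gap of 0.711 of the range. Sptbn4 in stimulated rat 7, at 167.0 CPM against 227.7 to 248.4 CPM in the other stimulated rats, had a gap of 0.746. Fgf13 in sham rat 2, at 201.0 CPM against 262.1 to 285.2 CPM in the other sham rats, had a gap of 0.726. No cause was tested for any of the 3.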

How the results depend on the processing

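At an adjusted p under 0.05 the count of members was 0 in all 11 alternative fits and in all 10 fits that left out 1 rat, and the lowest adjusted p of a member in any of them was 0.215 (Scn2a without rat 6). At an unadjusted p under 0.05 the count was 0 with all rats, 1 with no filter on low counts, 1 with limma-voom (Scn2a both times), and 0 to 4 when 1 rat was left out. Of all tested features 3.16% passed as lower with all rats, 3.48% with no filter, 4.17% with limma-voom, 5.73% without rat 6, 5.53% without rat 8 and 3.13% without sham rat 5. The 4 came without rat 6, and Scn2a alone passed without sham rat 5 or without stimulated rat 8. The count of partner genes at an unadjusted p under 0.05 was 3 with all rats, 1 (Sptbn4) with the neuron score as a covariate, 1 (Sptbn4) with the CA1 score, 2 (Sptbn4 and Rest) in the likelihood ratio and exact tests of edgeR, and 1 to 5 when 1 rat was left out. It was 1 without sham rat 1 (Camk2a), sham rat 2 (Fgf13), sham rat 5 or stimulated rat 7 (Sptbn4 both times), and 5 without rat 6 or rat 8. These partner counts are over both directions. Of all tested features, 9.86% passed in both directions with all rats, 4.81% with the neuron score and 7.84% with the CA1 score. The share was 9.98% in the likelihood ratio test and 9.72% in the exact test. It was 14.01% without rat 6, 13.52% without rat 8, and 7.37% to 8.52% without sham rat 1, 2 or 5 or stimulated rat 7. Of 147 pairs of a member and an alternative, 140 kept their direction. Scn3b was at -0.0036 with no filter and at -0.0382 to 0.0589 when 1 rat was left out, and Scn4b was at 0.0482 with the neuron score and at -0.25 to 0.0934 when 1 rat was left out (0.0934 without rat 10). The difference in log2 ratio ran from -0.0051 to 0.12 for Scn3a to Scn1a and from -0.079 to 0.0537 for Scn8a to Scn2a when 1 rat was left out, against 0.08 to 0.33 for Scn3b to Scn2b. Where results moved, the cause was not tested. No paired analysis was possible because the rats of both groups carry different numbers. With 5 rats a group and intervals of this width, changes of the size of the point estimates could not be told from 0. At the lowest count of each member, counting error alone gives a coefficient of variation of 1.11% (Scn3b, 8148 counts) to 9.29% (Scn4b, 116 counts), against 6.3% to 14.1% among sham rats.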
